A study of Mus musculus with 2 samples.

Results

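Cholesterol is built in the endoplasmic reticulum from acetyl-CoA. Described here are 28 genes of cholesterol synthesis, its control and sterol transport, measured in cells of injured mouse arteries. They are 18 synthesis enzymes, 1 enzyme of the isoprenoid side branch, 5 genes that control the pathway, 2 genes of sterol transfer and fatty acid activation, and 2 genes of cholesterol efflux. The genes were chosen by symbol, and all 28 were found among the 27998 genes of the table. Each was counted at 4 and at 2 weeks after wire injury, in 1 droplet single-cell library per time.

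Both groups were male C57BL/6J mice, aged 8 weeks, with n = 18 stated for either time in the design text. Carotid arteries were injured with a wire, the external carotid artery was tied off, and vessels were taken on day 28 (4 weeks) or day 14 (2 weeks), when the wall had thickened from the inside (intimal hyperplasia). The labels conflict on the vessel, since the source is given as carotid artery while aortic grafts are named for the extraction, and both the left and the right carotid are named. The adventitia was dissected from the media and neointima, tissue was digested with papain, and live nucleated cells were sorted before 10x Genomics library preparation. No uninjured artery was analysed here. With 1 library per time, differences between times have no replicate check and no test, cells cannot be traced to an animal, and every interval given is a 95% interval that covers counting error only.

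The 4-week library held 8565 barcodes and 83753250 UMIs (unique molecular identifiers, which count captured transcripts). At 2 weeks there were 5864 barcodes and 78773018 UMIs. After filtering, 7447 cells with a median of 8722 UMIs were kept at 4 weeks and 5169 with a median of 11796 UMIs at 2 weeks, and 6 kept barcodes occurred in both libraries. Clustering without the 28 genes gave 30 clusters. Marker genes named 25 of them, in 13 classes written as "-like" below, and 5 stayed numbered. Although the tissue is labelled carotid artery, smooth muscle cell-like cells numbered only 77 at 4 weeks and 207 at 2 weeks, and endothelial cell-like cells 25 and 41. Fibroblast-like cells (2570 and 1073) and macrophage-like cells (328 and 1170) were more numerous at both times. So were thymocyte-like cells (816 and 1626), which carry genes of T cell development such as Rag1 and Ptcra. B cell-like cells numbered 1167 and 39. Cluster 25, led by Chga and the parathyroid hormone gene Pth, held 2 and 69 cells.

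The pathway has an early arm, in which Acat2, Hmgcs1, Mvk, Pmvk, Mvd, Idi1 and Fdps turn acetyl-CoA through mevalonate into farnesyl diphosphate. A late arm of Fdft1, Sqle, Lss, Cyp51, Tm7sf2, Msmo1, Nsdhl, Hsd17b7, Ebp, Sc5d and Dhcr7 turns farnesyl diphosphate through squalene and lanosterol into cholesterol, while Ggps1 diverts it to geranylgeranyl groups for protein prenylation. When membrane sterol is low, Scap carries the transcription factors encoded by Srebf2 and Srebf1 to the Golgi for activation, and they switch on the enzyme genes. When sterol is high, the Insig1 and Insig2 proteins hold Scap back. Abca1 and Abcg1 encode transporters that export cholesterol to lipoproteins, and oxysterols induce them through the nuclear receptors LXR. Macrophages and foam cells of the injured wall are known for such efflux, and dividing cells for a high demand for new sterol.

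Promoter sequences were searched for elements through which this pathway is known to be controlled. Printed are 4 sequences: Idi1, Cyp51 and Abca1, which differed between the times in the comparisons below, and Hmgcs1 as a textbook sterol-responsive gene. CCAAT boxes bind NF-Y, a partner of the SREBP factors on such promoters. The printed sequences are the 250 bases before the transcription start from RefSeq, build GRCm38.p6, 5′ to 3′ on the gene's own strand. Capitals mark CCAAT boxes (letters CCAAT, or ATTGG on the other strand) and the sterol regulatory element consensus (letters TCACNCCAC, searched on both strands).
Hmgcs1, chr13:119690101-119690350, plus strand: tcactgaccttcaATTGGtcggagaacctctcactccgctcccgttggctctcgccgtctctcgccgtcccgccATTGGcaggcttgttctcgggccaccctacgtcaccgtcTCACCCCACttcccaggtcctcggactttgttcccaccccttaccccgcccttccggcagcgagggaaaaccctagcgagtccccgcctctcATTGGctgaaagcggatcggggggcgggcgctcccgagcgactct
Idi1, chr13:8885356-8885605, plus strand: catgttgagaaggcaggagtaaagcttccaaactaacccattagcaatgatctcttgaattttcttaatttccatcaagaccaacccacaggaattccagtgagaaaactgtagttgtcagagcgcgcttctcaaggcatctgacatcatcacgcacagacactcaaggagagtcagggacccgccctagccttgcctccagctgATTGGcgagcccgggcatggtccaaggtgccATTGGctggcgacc
Cyp51, chr5:4104698-4104947, minus strand: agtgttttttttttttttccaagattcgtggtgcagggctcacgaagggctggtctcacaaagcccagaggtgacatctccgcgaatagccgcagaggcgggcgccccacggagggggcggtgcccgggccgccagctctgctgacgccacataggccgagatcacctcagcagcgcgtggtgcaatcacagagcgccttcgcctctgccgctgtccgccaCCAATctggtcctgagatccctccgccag
Abca1, chr4:53159896-53160145, minus strand: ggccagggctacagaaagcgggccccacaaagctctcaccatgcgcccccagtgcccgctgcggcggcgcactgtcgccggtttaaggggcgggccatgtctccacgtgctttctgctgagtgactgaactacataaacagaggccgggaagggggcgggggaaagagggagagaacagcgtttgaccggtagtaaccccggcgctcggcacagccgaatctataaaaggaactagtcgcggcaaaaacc
The sterol element consensus occurred once in Hmgcs1, starting at position -137 from the start site, and did not overlap a CCAAT box there. Hmgcs1 held 3 CCAAT boxes, Idi1 held 2 and Cyp51 held 1, and neither motif occurred in this window of Abca1. Of the 28 members, 23 had a promoter in the table, and Fdps, Fdft1, Sqle, Stard4 and Abcg1 had no entry. CCAAT occurred in 14 of the 15 synthesis genes matched (93.3%), with Acat2 the exception, and in 6 of the 8 other members matched, against 37.5% of all 27025 genes with a promoter. The sterol element consensus occurred in 1 of the 15 synthesis genes and in 1.22% of all genes. An LXR element consensus (AGGTCA repeated with 4 free bases between the copies, both strands) occurred in no matched member and in 0.0148% of all genes. Per promoter window of this length, the 3 motifs occurred in 33.8%, 1.05% and 0.0152% of 32851 windows. Only exact matches to these letters were counted, so an element that differs from a consensus at any base was missed. The absence of a match therefore does not show that an element is absent. A match describes letters only.

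Over all kept cells, the 18 synthesis enzymes summed to 297.6 CPM (UMIs per 1000000 UMIs of the same cells) at 4 weeks and 363.3 CPM at 2 weeks. Abca1 and Abcg1 together summed to 111.9 CPM at 4 weeks and 184.1 CPM at 2 weeks. Because the cell types differed so much in number between the libraries, levels are given by class from here on. Within a class, UMIs of all cells were summed per library before scaling to CPM, and a ratio is CPM at 4 weeks over CPM at 2 weeks on the log2 scale. A gene was counted as past the fold when it had at least 100 UMIs over both libraries and differed by at least 1.5-fold.

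Among the classes and the 5 clusters that stayed numbered, the highest enzyme levels were in thymocyte-like cells and cluster 14. Cluster 14 was led by B cell genes such as Rgs13 and Pou2af1. Single clusters within a class could lie higher, as cluster 24 of the dendritic cell-like class did (723 CPM at 4 weeks). Macrophage-like cells had low enzyme levels and the highest Abca1. Summed enzymes were at 623 CPM in thymocyte-like cells at 4 weeks and 765 CPM at 2 weeks, and at 691 CPM in the 273 cells of cluster 14 at 4 weeks (4 cells at 2 weeks, too few for a level). Dendritic cell-like cells had 484 CPM at 4 weeks and 320 CPM at 2 weeks, and smooth muscle cell-like cells 409 and 318 CPM. Fibroblast-like cells (224 and 212 CPM), macrophage-like cells (228 and 203 CPM), endothelial cell-like cells (209 and 200 CPM) and cluster 8 (204 and 200 CPM) lay close together at the low end. B cell-like cells, at 235 and 198 CPM, stood with these and not with cluster 14. Neutrophil-like cells had the lowest sums, at 130 CPM (79.6 to 201) at 4 weeks and 183 CPM (152 to 219) at 2 weeks. These came from 20 and 122 UMIs.

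**Figure D1:**
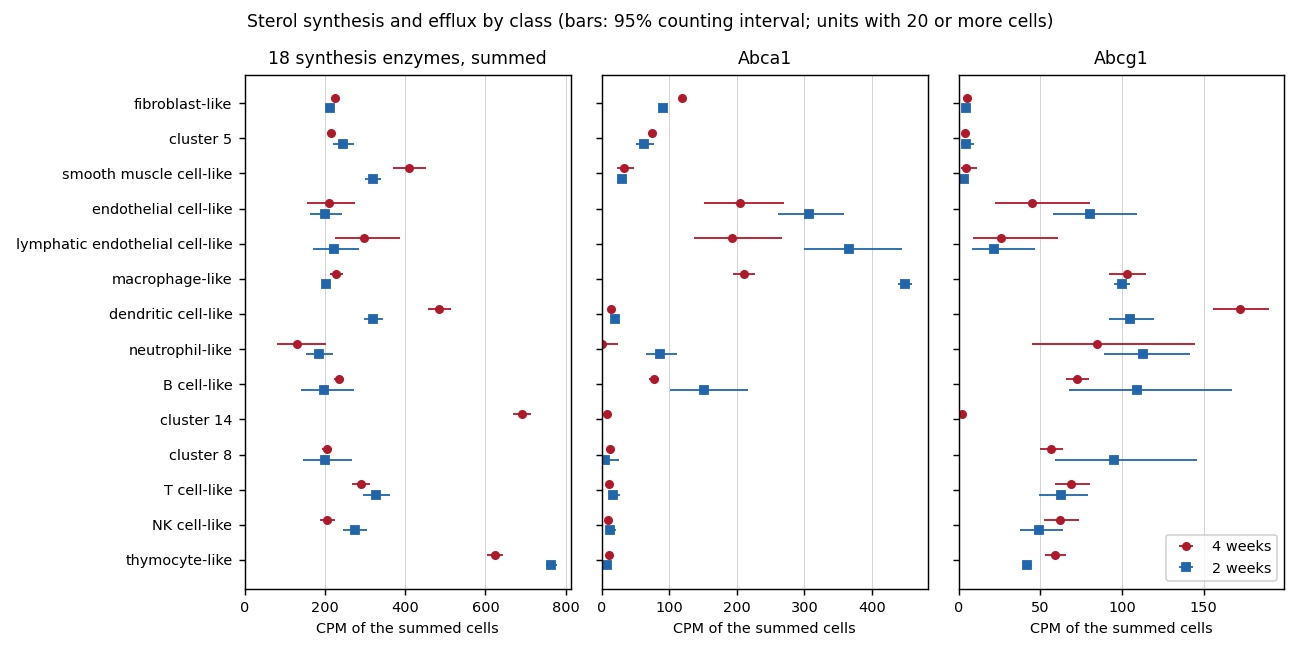
Levels by class, in CPM of the summed cells, for the 18 synthesis enzymes together (left), Abca1 (middle) and Abcg1 (right), with red circles for 4 weeks, blue squares for 2 weeks and bars for 95% counting intervals; units with 20 or more cells are drawn. Thymocyte-like cells and cluster 14 lie farthest right for the enzymes, macrophage-like cells at 2 weeks (449 CPM) for Abca1, and dendritic cell-like cells at 4 weeks (172 CPM) for Abcg1.

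Abca1 was at 211 CPM in macrophage-like cells at 4 weeks and 449 CPM at 2 weeks, the highest class at both times. Endothelial cell-like cells followed at 4 weeks with 205 CPM (306 CPM at 2 weeks), and lymphatic endothelial cell-like cells had 193 CPM at 4 weeks and 366 CPM at 2 weeks. At 4 weeks the counting intervals of these 3 levels overlapped. Fibroblast-like cells were at 119 and 90.9 CPM. Lymphoid classes were low, with 10.6 and 7.40 CPM in thymocyte-like cells, 11.2 and 17.0 CPM in T cell-like cells and 9.68 and 12.1 CPM in NK cell-like cells, although B cell-like cells had 76.9 and 151 CPM.

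Abcg1 had another order. It was at 172 CPM at 4 weeks and 105 CPM at 2 weeks in dendritic cell-like cells, and at 103 and 99.8 CPM in macrophage-like cells. Plasmacytoid dendritic cell-like cells were second at 4 weeks (127 CPM, 20 cells). At 2 weeks neutrophil-like cells were highest (113 CPM), followed by B cell-like cells. Lymphoid classes lay below these levels at 4 weeks, with 58.7 and 42.0 CPM in thymocyte-like cells, 68.9 and 62.9 CPM in T cell-like cells, 62.2 and 49.2 CPM in NK cell-like cells and 72.4 and 109 CPM in B cell-like cells. In fibroblast-like cells, which carried ample Abca1, Abcg1 was at only 5.19 and 4.23 CPM, and smooth muscle cell-like cells had 4.28 and 3.17 CPM. Cluster 14 carried little of either, at 2.25 CPM of Abcg1 and 8.19 CPM of Abca1, both at 4 weeks.

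**Figure D2:**
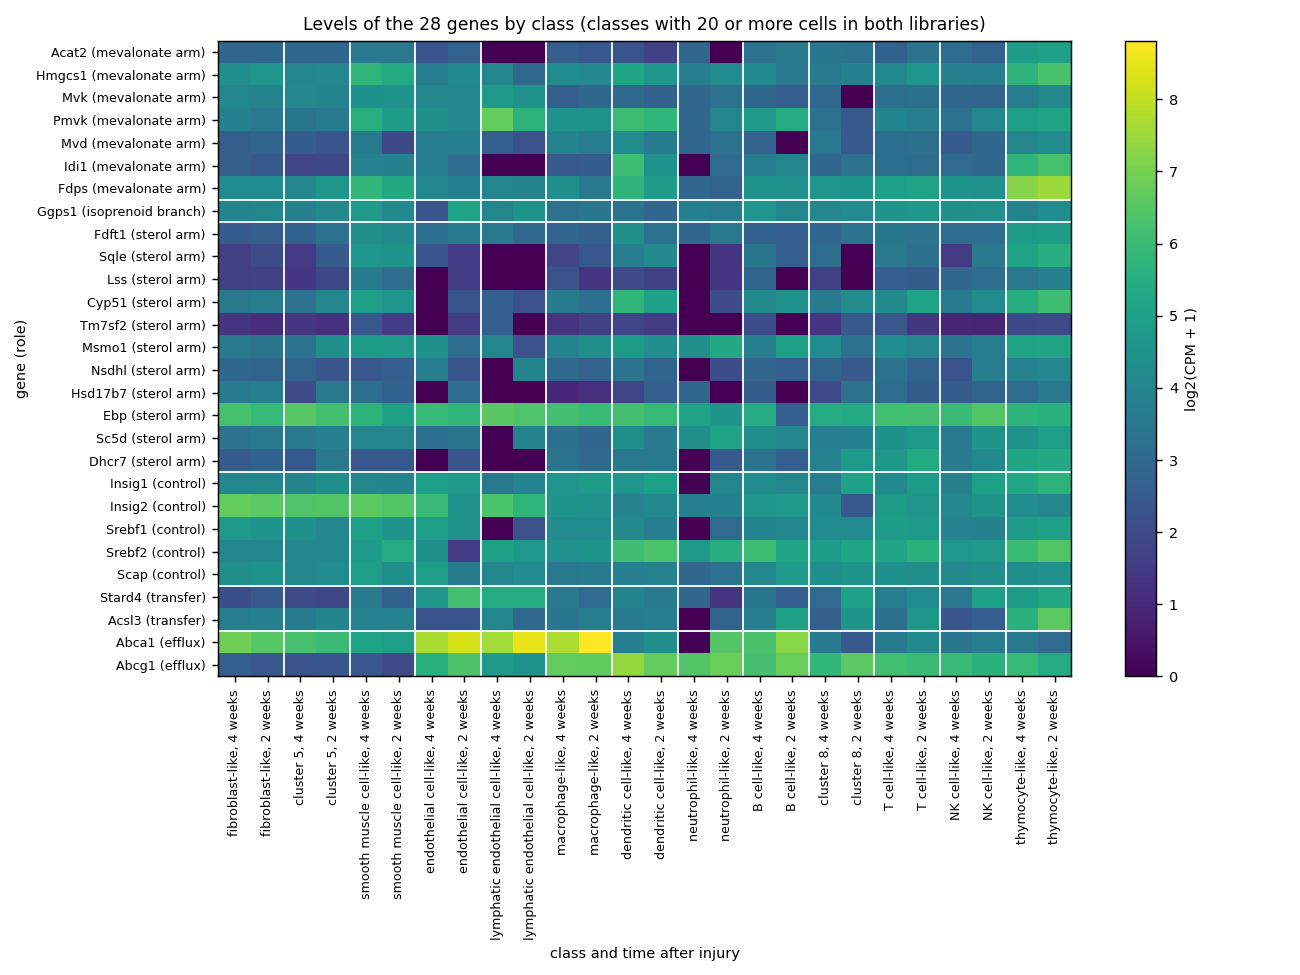
Levels of the 28 genes (rows, grouped by role) in each class with 20 or more cells in both libraries (columns, 4 weeks left of 2 weeks), as log2(CPM + 1). The brightest cells outside the efflux rows are Fdps in thymocyte-like cells, at 148 CPM at 4 weeks and 181 CPM at 2 weeks, and the Insig2 row is brightest in stromal classes.

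Set against all other cells of the same library, thymocyte-like cells had 623 CPM of summed enzymes against 270 CPM at 4 weeks, and 765 against 231 CPM at 2 weeks. At 4 weeks, 13 of 18 enzymes were past the fold upwards (29.4% of all genes tested were), and none downwards (38.2%). At 2 weeks, 15 of 18 were upwards (31.4% of all genes) and none downwards (41.6%). The early arm, at 340 CPM against 112 CPM at 4 weeks and 432 against 91.4 CPM at 2 weeks, had a larger ratio than the late arm, at 283 against 159 CPM and 333 against 139 CPM. Fdps, which makes farnesyl diphosphate, was at 148 CPM against 28.4 CPM at 4 weeks and at 181 against 18.4 CPM at 2 weeks. Idi1, which isomerises its substrate, was at 54.3 against 12.2 CPM at 4 weeks and 74.2 against 6.70 CPM at 2 weeks. Sqle, the squalene epoxidase, was at 33.7 against 7.24 CPM at 4 weeks and 44.2 against 6.59 CPM at 2 weeks. Ebp, a sterol isomerase, had the opposite sign, at 52.2 against 68.0 CPM at 4 weeks and 48.5 against 58.6 CPM at 2 weeks.

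Members outside the enzymes also set thymocyte-like cells apart. Srebf2, the main activator of the enzyme genes, was at 63.5 CPM against 29.3 CPM in other cells at 4 weeks and 85.5 against 24.4 CPM at 2 weeks. Acsl3, a fatty acyl-CoA synthetase, was at 47.5 against 11.4 CPM at 4 weeks and 94.7 against 14.6 CPM at 2 weeks, and Stard4, a cytosolic sterol carrier, at 27.2 against 7.65 CPM and 37.6 against 7.61 CPM. Insig2 lay low, at 18.2 CPM against 70.8 CPM at 4 weeks and 15.98 against 61.2 CPM at 2 weeks. Its partner Insig1, itself a sterol-responsive gene, was higher, at 37.2 against 17.2 CPM at 4 weeks and 50.7 against 20.6 CPM at 2 weeks. Thymocyte-like cells were the highest class for Srebf2 and Insig1 at 2 weeks and for Acsl3 at 4 weeks. Cluster 14 was higher for Srebf2 at 4 weeks (81.3 CPM), plasmacytoid dendritic cell-like cells for Insig1 at 4 weeks (40.7 CPM) and epithelial cell-like cells for Acsl3 at 2 weeks (107 CPM). Stard4 was highest in lymphatic endothelial cell-like cells at 4 weeks (41.8 CPM) and endothelial cell-like cells at 2 weeks (70.7 CPM).

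Cluster 14 at 4 weeks had 691 CPM of summed enzymes against 269 CPM in all other cells, with 15 of 18 enzymes past the fold upwards (23.0% of all genes tested). Cyp51, the lanosterol demethylase, was at 86.6 CPM against 15.8 CPM there, and Idi1 at 62.8 against 12.1 CPM. Sqle was at 44.8 against 6.75 CPM, and Pmvk, the phosphomevalonate kinase, at 68.4 against 18.1 CPM. As in thymocyte-like cells, Srebf2 was high (81.3 against 28.4 CPM) and Insig2 low (26.6 against 69.5 CPM). Acsl3 was not, at 14.9 CPM against 14.1 CPM.

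Fibroblast-like cells showed the opposite. Of the 18 enzymes, 13 were past the fold downwards at 4 weeks (30.7% of all genes tested) and 15 at 2 weeks (37.1%), with sums of 224 against 356 CPM and 212 against 441 CPM in all other cells. Hsd17b7, a sterol ketoreductase, was the 1 enzyme past the fold upwards (26.3% of all genes at 4 weeks and 23.6% at 2 weeks), at 11.2 against 5.21 CPM at 4 weeks and 13.5 against 6.25 CPM at 2 weeks. Insig2 was highest in fibroblast-like cells of all classes, at 106 CPM at 4 weeks (35.7 CPM in other cells) and 94.4 CPM at 2 weeks (27.1 CPM in other cells). In macrophage-like cells 8 of 18 enzymes were past the fold downwards at 4 weeks (41.6% of all genes tested) and 13 at 2 weeks (46.6%). Both efflux genes were past the fold upwards there at both times, as were 15.4% of all genes at 4 weeks and 16.9% at 2 weeks. In dendritic cell-like cells 7 of 18 enzymes were past the fold upwards at 4 weeks (14.0% of all genes tested) and 1 at 2 weeks (12.3%), and in smooth muscle cell-like cells 9 at 4 weeks (22.2%) and 1 at 2 weeks (19.5%). All these contrasts between classes move with the make-up of the remaining cells, which differed between the libraries.

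Within thymocyte-like cells, enzyme levels were higher in cycling cells. Cells were called cycling when they had at least 2 UMIs of a proliferation list after thinning to 2700 UMIs, which applied to 202 of 482 thinned cells at 4 weeks and 667 of 1331 at 2 weeks. Summed enzymes were at 746 CPM in cycling cells against 443 CPM in other cells at 4 weeks (log2 ratio 0.75), and at 848 against 532 CPM at 2 weeks (0.67). At 4 weeks, 6 of the 12 enzymes with enough UMIs were past the fold upwards (16.9% of all genes tested) and Dhcr7, the reductase of the last step, was past it downwards (27.9%). At 2 weeks, 9 of 17 were past it upwards (14.0%) and none downwards (29.1%). The median enzyme ratio was 0.75 at 4 weeks and 0.60 at 2 weeks, beside -0.13 and -0.21 over all genes.

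Fdps had 190 CPM in cycling cells and 84.0 CPM in other thymocyte-like cells at 4 weeks, and 209 and 100.1 CPM at 2 weeks. Hmgcs1, which makes HMG-CoA, had 68.6 and 25.2 CPM at 4 weeks and 88.3 and 42.0 CPM at 2 weeks. Efflux genes moved the other way, summing to 33.7 CPM in cycling cells against 112 CPM in other cells at 4 weeks and 31.1 against 96.1 CPM at 2 weeks. Of these, Abcg1 was at 31.0 against 91.0 CPM at 4 weeks and 28.7 against 74.6 CPM at 2 weeks, and Abca1 at 2.31 against 21.4 CPM at 2 weeks. Cycling cells were deeper, with medians of 13517 and 15837 UMIs against 3422.5 and 3851 in other cells. The clusters of the class differed too. Cluster 1, led by Rag1, had 318 CPM of summed enzymes and 165 CPM of efflux genes at 4 weeks, and 366 and 146 CPM at 2 weeks. Cluster 7, led by histone genes, had 734 and 35.6 CPM at 4 weeks, and 841 and 29.9 CPM at 2 weeks. Cluster 12 had 721 and 37.2 CPM, and 858 and 29.8 CPM. The parts of depth and of cluster make-up in the differences between cycling and other cells were not tested. In cluster 14 the split by cycling gave little, at 681 CPM in cycling cells and 721 CPM in other cells (log2 ratio -0.08).

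Between the times, the enzymes of thymocyte-like cells were lower at 4 weeks, by -0.29 on the log2 scale for the sum (-0.35 to -0.24). Of the 27 members with enough UMIs, 23 had ratios below 0, with a median of -0.29 beside 0.01 over all genes. Only Cyp51 and Acsl3 were past the fold, both downwards (2.39% of all genes tested), and none upwards (2.75%). Cyp51 was at 44.5 CPM at 4 weeks and 67.2 CPM at 2 weeks (-0.60; -0.80 to -0.40). Acsl3 was at 47.5 CPM at 4 weeks and 94.7 CPM at 2 weeks (-0.996; -1.19 to -0.81), and it was lower at 4 weeks in each of the 3 larger clusters of the class. In cluster 1, led by Rag1, Acsl3 was at 37.6 CPM at 4 weeks against 129 CPM at 2 weeks, in cluster 7, led by histone genes, at 54.0 against 90.9 CPM, and in cluster 12, led by Myl10 and Ptcra, at 46.3 against 81.0 CPM. Overlap of Acsl3 with Utp14b on the same strand makes its counts uncertain.

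The efflux genes of thymocyte-like cells had ratios above 0, with Abca1 at 10.6 CPM at 4 weeks and 7.40 CPM at 2 weeks (0.52; 0.05 to 0.97) and Abcg1 at 58.7 and 42.0 CPM (0.48; 0.29 to 0.67). Cycling cells were 41.9% of thinned thymocyte-like cells at 4 weeks and 50.1% at 2 weeks, and the part of this shift in the ratios of the class was not tested. In the 3 larger thymocyte-like clusters the enzyme sums also lay lower at 4 weeks, at 734 against 841 CPM in cluster 7, 721 against 858 CPM in cluster 12 and 318 against 366 CPM in cluster 1. In the smallest, cluster 19 (108 and 99 cells), the sum was 369 CPM (267 to 497) at 4 weeks and 245 CPM (152 to 374) at 2 weeks, from 43 and 21 UMIs, and these intervals overlapped.

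**Figure D3:**
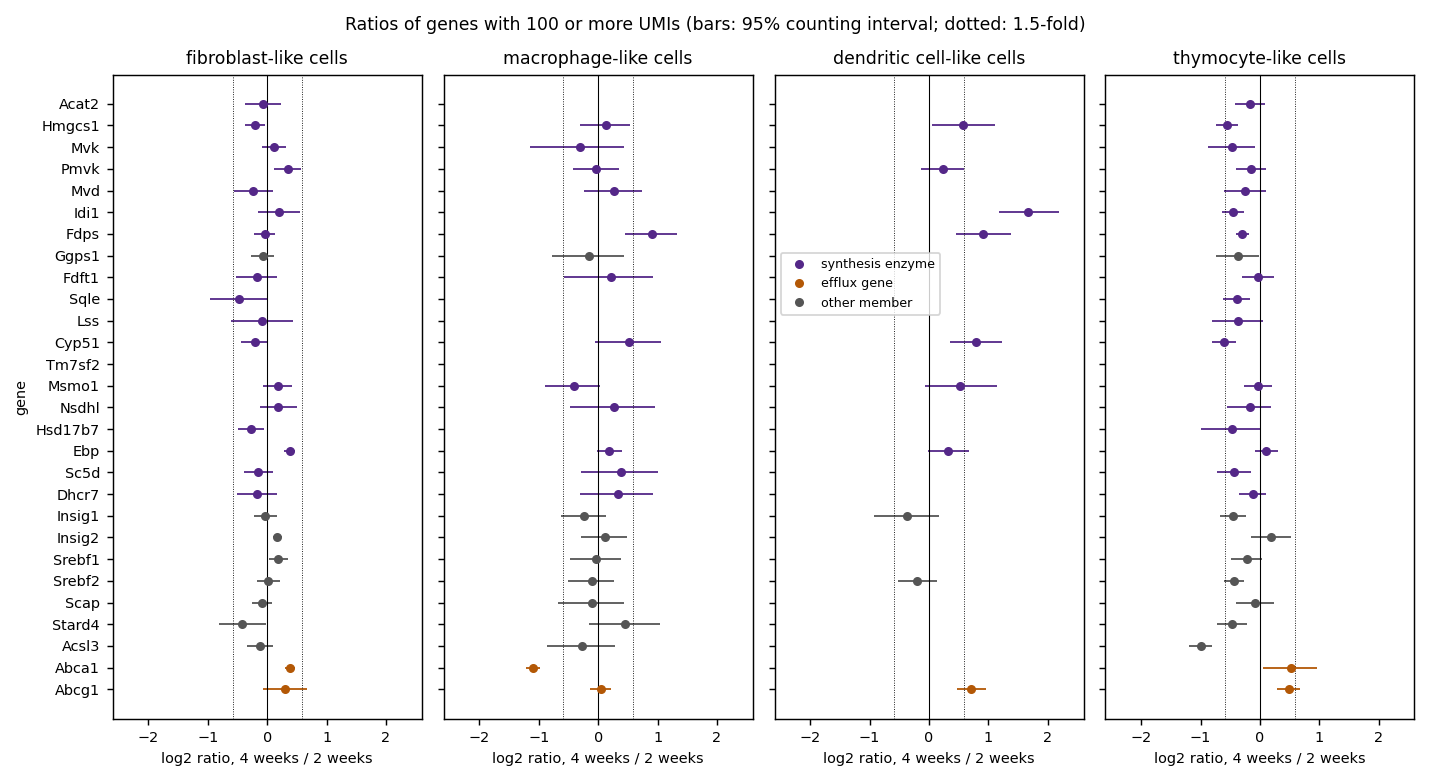
Log2 ratios of CPM at 4 weeks over 2 weeks for members with 100 or more UMIs, in 4 classes, with purple for synthesis enzymes, orange for efflux genes, grey for other members, bars for 95% counting intervals and dotted lines at 1.5-fold. Abca1 stands far left in macrophage-like cells (-1.09), Idi1 far right in dendritic cell-like cells (1.67), and most thymocyte-like ratios lie left of 0.

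Macrophage-like cells carried less Abca1 at 4 weeks, and this was the member with the lowest ratio there. It was at 211 CPM at 4 weeks and 449 CPM at 2 weeks (log2 ratio -1.09; -1.21 to -0.98). Of the 22 members with enough UMIs it was the 1 past the fold downwards (8.17% of all genes tested). Abcg1, its partner in efflux, was at 103 and 99.8 CPM (0.04; -0.14 to 0.22). The class was made up differently at each time, with clusters 4, 9 and 22 holding 116, 147 and 65 cells at 4 weeks and 660, 422 and 88 cells at 2 weeks. Abca1 was lower in each of them: 241 CPM at 4 weeks against 471 CPM at 2 weeks in cluster 4, led by the resident macrophage genes Folr2 and C1qc, 212 against 423 CPM in cluster 9, led by Arg1 and Mmp12, and 45.6 against 353 CPM in cluster 22 (10 and 52 UMIs). Abcg1 was at 58.9 CPM at 4 weeks against 77.2 CPM at 2 weeks in cluster 4 (-0.39; -0.78 to -0.02) and 137 against 128 CPM in cluster 9 (0.10; -0.11 to 0.31).

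The 8 genes of a list of LXR and SREBP machinery outside the members were all measured in macrophage-like cells, and none was past the fold. Of these, 7 had a ratio below 0, with a median of -0.13 beside -0.02 over all genes. In cluster 4 their summed level was 327 CPM at 4 weeks and 427 CPM at 2 weeks (-0.39; -0.55 to -0.23). Immediate early genes, which respond to stimulation and to tissue dissociation, were also lower at 4 weeks in this class. Of 12, 10 were past the fold downwards (8.17% of all genes tested). Their sum was 8955 CPM at 4 weeks and 15722 CPM at 2 weeks (log2 ratio -0.81). They were lower at 4 weeks in fibroblast-like cells too, where Abca1 was higher at 4 weeks. There 7 of 12 were past the fold downwards (7.84% of all genes tested), with a log2 ratio of the sum of -0.49. Their part in the Abca1 difference was not tested.

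Among the macrophage enzymes, Fdps was past the fold upwards (4.83% of all genes tested), at 19.8 CPM at 4 weeks and 10.6 CPM at 2 weeks (0.90; 0.46 to 1.33). It was also past the fold in cluster 4 (17.0 against 10.5 CPM, as were 4.67% of all genes tested) and cluster 9 (20.1 against 10.6 CPM, 6.22% of genes), although the interval in cluster 4 included 0. Cyp51 was at 11.8 and 8.25 CPM (0.52), and Msmo1, a methylsterol oxidase, at 14.7 and 19.5 CPM (-0.41), both with intervals that included 0. In cluster 9, Msmo1 was past the fold downwards, at 11.7 CPM at 4 weeks and 18.7 CPM at 2 weeks (-0.68; -1.41 to -0.004). No share of all genes is given for that direction there. In cluster 4 it was at 19.6 and 20.1 CPM (-0.03). In the class as a whole, the summed enzymes were at 228 CPM at 4 weeks and 203 CPM at 2 weeks (0.17; 0.05 to 0.28).

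Dendritic cell-like cells had more of the enzymes at 4 weeks, at 484 CPM against 320 CPM at 2 weeks for the sum (0.60; 0.46 to 0.74). Of the 10 members with enough UMIs, Idi1, Fdps, Cyp51 and Abcg1 were past the fold upwards (5.15% of all genes tested) and none downwards (12.1%). The 7 enzymes among the 10 had a median ratio of 0.57, beside -0.06 over all genes. Idi1 was at 67.1 CPM at 4 weeks and 21.1 CPM at 2 weeks (1.67; 1.18 to 2.18). Fdps was at 52.7 and 28.1 CPM (0.91), Cyp51 at 54.9 and 31.9 CPM (0.78), and Abcg1 at 172 and 105 CPM (0.71; 0.47 to 0.96). Insig1 (23.5 and 30.5 CPM) and Srebf2 (68.8 and 78.8 CPM) had ratios below 0 with intervals that included 0.

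Much of this lay in cluster 24, led by Ccr7, Fscn1 and Ccl22, genes of migratory dendritic cells, which held 65 cells at 4 weeks and 24 at 2 weeks. Its summed enzymes were at 723 CPM at 4 weeks and 463 CPM at 2 weeks. Idi1 was at 177 CPM (147 to 211) at 4 weeks and 73.9 CPM (46.9 to 111) at 2 weeks, Cyp51 at 88.5 and 41.8 CPM, and Abcg1 at 316 CPM (276 to 360) and 112 CPM (78.3 to 156). Abca1, by contrast, had 2 UMIs in the cluster at each time. Cluster 18, led by Retnla and Cd209a, had 105 and 104 cells, with summed enzymes at 377 CPM at 4 weeks and 296 CPM at 2 weeks (0.35; 0.18 to 0.52). Its median cell did not differ in that direction, at 252 CPM at 4 weeks and 259 CPM at 2 weeks. The 5 cells with the most enzyme UMIs held 26.7% and 22.3% of them, and the sums without these cells were 299 and 249 CPM. In cluster 18 as a whole, Abcg1 was at 107 and 104 CPM, Idi1 at 17.7 and 12.1 CPM, and Fdps at 47.4 and 23.1 CPM (1.04; 0.48 to 1.62). The proliferation list was lower in dendritic cell-like cells at 4 weeks (5 of 6 genes past the fold, 238 CPM against 466 CPM). Of the immediate early genes, 11 of 12 were past it downwards, where 12.1% of all genes tested were. The part of either list in these ratios was not tested.

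**Figure D4:**
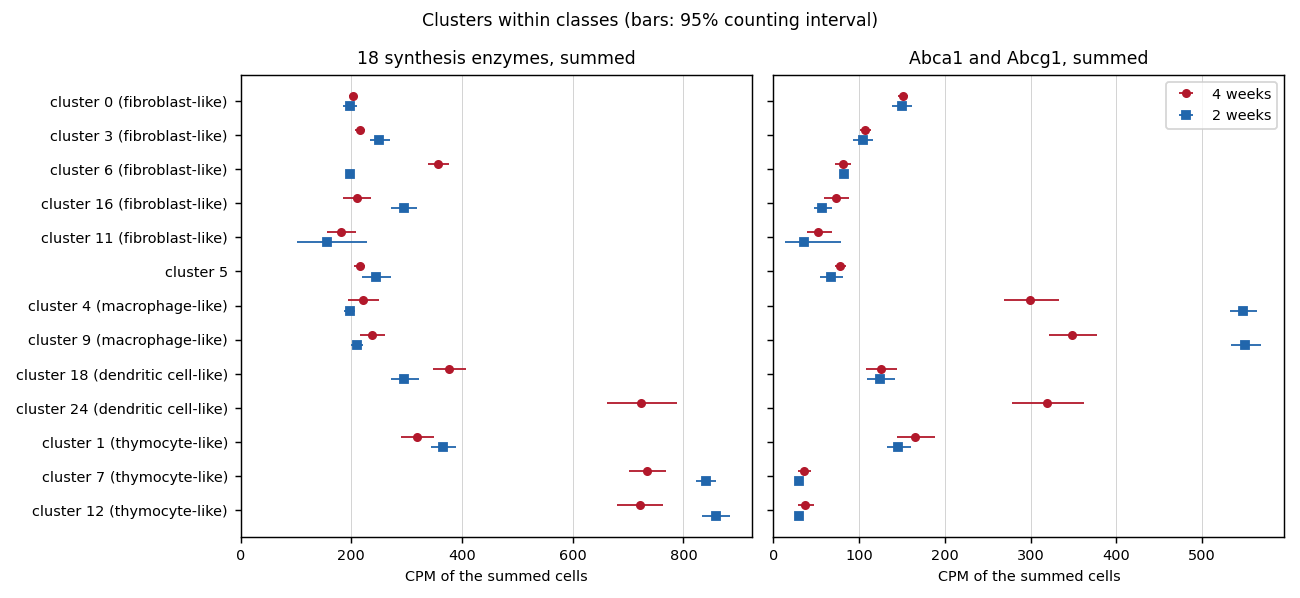
CPM of the summed cells by cluster within the named classes and cluster 5, for the 18 enzymes (left) and for Abca1 with Abcg1 (right), at 4 weeks (red circles) and 2 weeks (blue squares), with bars for 95% counting intervals; cluster 24 is drawn at 4 weeks only, having 24 cells at 2 weeks. In cluster 6 the 4-week enzyme sum (357 CPM) lies above the 2-week sum (197 CPM), in clusters 3 and 16 it lies below, and in clusters 4 and 9 the 4-week sum of the efflux genes lies below the 2-week sum.

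Smooth muscle cell-like cells, a single cluster led by Myh11 and Cnn1, had summed enzymes of 409 CPM at 4 weeks and 318 CPM at 2 weeks (0.36; 0.19 to 0.53). Of 10 members with enough UMIs, Pmvk (44.98 and 28.2 CPM, 0.67) and Ebp (50.3 and 31.0 CPM, 0.70) were past the fold upwards (3.56% of all genes tested). Srebf2 was past it downwards (3.06%), at 25.7 CPM at 4 weeks and 41.5 CPM at 2 weeks (-0.69; -1.38 to -0.06). These rest on 77 and 207 cells, and the sign of the enzyme sum was not kept when each library was clustered on its own (-0.057). Abca1 was at 33.2 and 29.1 CPM (0.19; -0.45 to 0.79).

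T cell-like cells had 289 CPM of summed enzymes at 4 weeks and 327 CPM at 2 weeks. Of the 5 members with enough UMIs, Dhcr7 was past the fold downwards (11.4% of all genes tested), at 24.6 and 40.8 CPM (-0.73; -1.31 to -0.15), and none upwards (5.76%). The class was made up differently at the 2 times, with cluster 17 at 226 cells at 4 weeks and 6 cells at 2 weeks. NK cell-like cells had 205 CPM at 4 weeks and 274 CPM at 2 weeks, and neither Ebp (-0.39) nor Abcg1 (0.34), the 2 members with enough UMIs, was past the fold (3.24% of all genes were upwards and 17.9% downwards). The median ratio of all genes was itself -0.23 in that class, and its proliferation genes were at 46.1 CPM at 4 weeks against 629 CPM at 2 weeks. Their part in the enzyme sum was not tested. Cluster 5 carried 100% of the fibroblast markers. It stayed numbered because its leading genes held a marker listed for pericytes, Abcc9, and none listed for fibroblasts. In this cluster 1 of 14 members was past the fold downwards (4.36% of all genes tested) and none upwards (5.77%). This was Msmo1, at 9.31 CPM at 4 weeks and 19.3 CPM at 2 weeks (-1.05; -1.70 to -0.37).

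In fibroblast-like cells as a class, the pathway differed little between the times. None of the 27 members with enough UMIs was past the fold (3.0% of all genes tested were upwards and 7.84% downwards), and the members' median ratio was -0.07 beside 0.01 over all genes. Tm7sf2, a sterol reductase that overlaps Vps51, had too few UMIs for a ratio. The highest ratios were those of Abca1, at 119 CPM at 4 weeks and 90.9 CPM at 2 weeks (0.38; 0.31 to 0.46), and Ebp, at 75.5 and 58.2 CPM (0.38; 0.28 to 0.47). The lowest were those of Sqle, at 2.19 and 3.04 CPM (-0.47; -0.96 to 0.02), and Stard4, at 3.37 and 4.52 CPM (-0.42; -0.82 to -0.03). Abcg1 was at 5.19 and 4.23 CPM (0.30; -0.07 to 0.66).

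The fibroblast-like clusters did not share 1 direction. Cluster 0, led by Pla1a and Pi16, had summed enzymes of 203 CPM at 4 weeks and 198 CPM at 2 weeks, cluster 3, led by Cilp and Thbs4, 215 and 251 CPM, and cluster 16, led by Mgp and Comp, 210 and 295 CPM. In cluster 3, Cyp51 (8.73 and 15.5 CPM, -0.83) and Hsd17b7 (7.69 and 12.2 CPM, -0.67) were past the fold downwards (4.59% of all genes tested). Cluster 6, led by Tnfaip6, Cthrc1, Postn and collagen genes of matrix-producing fibroblasts, had 163 cells at 4 weeks and 485 at 2 weeks. Its summed enzymes were at 357 CPM at 4 weeks and 197 CPM at 2 weeks (0.85; 0.76 to 0.95), and 10 members were past the fold upwards (2.84% of all genes tested), 9 of them enzymes.

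The enzymes past the fold in cluster 6 came from both arms. Idi1 was at 20.0 CPM at 4 weeks and 3.78 CPM at 2 weeks (2.40), Pmvk at 28.0 and 8.92 CPM (1.65), and Mvd, which decarboxylates mevalonate diphosphate, at 14.1 and 5.97 CPM (1.24). Of the late arm, Msmo1 was at 20.8 and 7.28 CPM (1.51), Cyp51 at 33.3 and 11.7 CPM (1.504) and Fdft1, the squalene synthase, at 11.98 and 4.94 CPM (1.28). Fdps (1.05), Hmgcs1 (0.84), Insig1 (0.62) and Dhcr7 (0.60) completed the 10. Abca1 was at 75.9 and 78.9 CPM (-0.06; -0.25 to 0.13).

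Few cells carried that difference. The 5 cells of cluster 6 with the most enzyme UMIs at 4 weeks held 40.6% of its enzyme UMIs and 4.96% of all its UMIs, against 9.05% and 1.71% for the top 5 cells at 2 weeks. The median cell was at 178 CPM at 4 weeks and 168 CPM at 2 weeks. Without the top 5 cells of each library the sums were 223 and 182 CPM, a log2 ratio of 0.29, and 3 members were past the fold upwards. Hsd17b7 was then past it downwards, at 7.85 CPM at 4 weeks and 12.4 CPM at 2 weeks (-0.66; -1.29 to -0.08). No share of all genes is given for this setting. The 5 cells at 4 weeks had summed enzymes of 3910, 4384, 2219, 1813 and 1520 CPM, with 10 to 18 of the 18 enzymes detected in each, and the 5 cells at 2 weeks had 758 to 1423 CPM. None of these 10 cells had an Abca1 UMI. Because these cells were chosen by their enzyme UMIs, higher enzyme levels in them follow from the choice and are given as a description. The 5 cells at 4 weeks held 402 CPM of Hmgcs1 against 23.5 CPM in the cluster's other cells, 300.4 against 5.32 CPM of Idi1 and 166 against 2.52 CPM of Sqle. Ebp (91.2 against 69.8 CPM) and Insig2 (91.2 against 103 CPM) stood apart far less.

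Cells of this kind occurred in several classes. Calling a cell enzyme-high at 1000 CPM or more of summed enzymes with at least 20 enzyme UMIs, 73 cells were found at 4 weeks and 139 at 2 weeks. They were 2.33% of thymocyte-like cells at 4 weeks (19 of 816) and 7.38% at 2 weeks (120 of 1626), 12.8% of cluster 14 at 4 weeks (35 of 273), 4.12% and 1.56% of dendritic cell-like cells (7 and 2 cells), and 0.350% and 0.932% of fibroblast-like cells (9 and 10 cells). In cluster 6 they were 4.91% at 4 weeks (8 of 163) and 1.03% at 2 weeks (5 of 485). No enzyme-high cell was found among 328 and 1170 macrophage-like cells, which allows shares of up to 0.915% and 0.256%. The minimum of 20 UMIs makes these shares depend on depth, which was lower at 4 weeks in each of thymocyte-like, dendritic cell-like and fibroblast-like cells.

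Other members, which did not enter the sum used to choose them, are given for the enzyme-high cells as a description. The 9 enzyme-high fibroblast-like cells at 4 weeks had 169 CPM of Insig1 (124 to 225) against 14.8 CPM in the other 2561 cells, and the 10 at 2 weeks had 121 CPM (83.1 to 170) against 15.3 CPM. Stard4 was at 86.5 against 2.65 CPM at 4 weeks and 62.2 against 3.86 CPM at 2 weeks, and Srebf2 at 86.5 against 15.4 CPM and 62.2 against 15.4 CPM. Acsl3 was at 57.7 against 11.7 CPM and 36.6 against 12.9 CPM. Insig1, Stard4, Srebf2 and Acsl3 were thus all higher in enzyme-high cells at both times.

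Insig2 and Scap were not: Insig2 was at 97.3 against 106 CPM at 4 weeks and 65.9 against 94.7 CPM at 2 weeks, and Scap at 21.6 against 20.1 CPM at 4 weeks. Abca1 lay lower in the enzyme-high cells, at 14.4 CPM (3.93 to 36.9) against 119 CPM at 4 weeks and 7.32 CPM (0.886 to 26.4) against 91.9 CPM at 2 weeks. Of these cells, 8 of the 9 at 4 weeks and 5 of the 10 at 2 weeks belonged to cluster 6, which as a whole had 75.9 and 78.9 CPM of Abca1. Their median depth was 27031 UMIs against 12528 in other fibroblast-like cells at 4 weeks, and 17716 against 21365 at 2 weeks, so they were deeper at 1 time and shallower at the other.

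**Figure D5:**
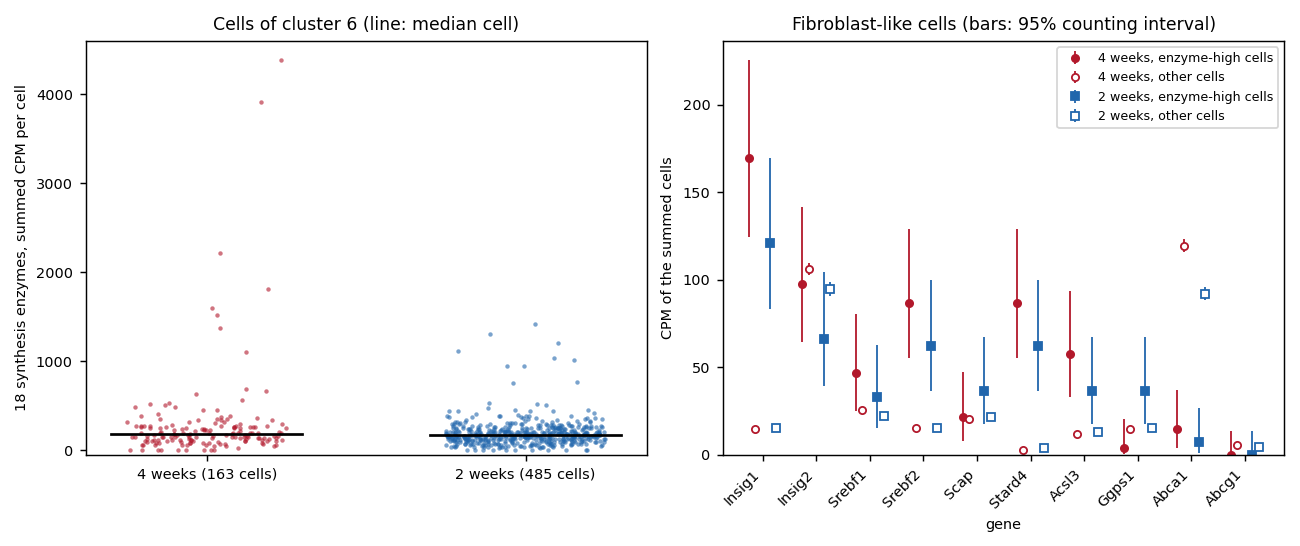
Left, summed CPM of the 18 enzymes in each cell of cluster 6 at 4 weeks (163 cells) and 2 weeks (485 cells), with a line at the median cell; right, CPM of 10 other members in enzyme-high fibroblast-like cells (filled) and other fibroblast-like cells (open) at each time, with 95% counting intervals. The median lines are level (178 and 168 CPM) while a few 4-week cells reach 1520 to 4384 CPM, and Insig1, Srebf2 and Stard4 are higher and Abca1 lower in enzyme-high cells at both times.

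Enzyme-high cells of the lymphoid units showed part of this pattern. In cluster 14 at 4 weeks, Insig1 was at 78.4 CPM against 17.6 CPM in its other cells, Stard4 at 63.9 against 24.3 CPM and Srebf2 at 122 against 74.6 CPM. In thymocyte-like cells Insig1 was at 65.5 against 33.6 CPM at 4 weeks, and Stard4 at 58.5 against 32.4 CPM at 2 weeks. Abcg1, the efflux gene these cells mostly carry, was at 17.2 against 64.0 CPM at 4 weeks and 16.9 against 48.3 CPM at 2 weeks. Of the enzyme-high cells, 13 at 4 weeks and 79 at 2 weeks belonged to cluster 7, and 6 and 41 to cluster 12. As wholes, clusters 7 and 12 had 32.9 and 34.7 CPM of Abcg1 at 4 weeks, and 27.9 and 28.0 CPM at 2 weeks. Cluster 1, with no enzyme-high cell, had 131 CPM at 4 weeks and 111 CPM at 2 weeks. Abca1 had no UMI in the 19 enzyme-high thymocyte-like cells at 4 weeks (up to 4.68 CPM, 3 counts over the group) against 11.9 CPM in the others, and was at 1.69 against 8.83 CPM at 2 weeks. Median depth differed widely here, at 36010 UMIs against 2980 at 4 weeks and 26293 against 4396 at 2 weeks, and the part of depth and of undetected doublets was not tested.

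Several members share sequence or position with other genes, and their counts are less certain for it. Acat2 has the near-identical neighbour Acat3, Fdps overlaps Gm43738 on the same strand, and Mvd, Ggps1, Fdft1, Lss, Cyp51 and Srebf1 overlap genes on the other strand. Tm7sf2 was the least counted member, with 149 UMIs at 4 weeks and 157 UMIs at 2 weeks over all kept cells.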

How the data were processed

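The deposited values are raw counts of UMIs for every barcode and gene. Per the file headers they come from Cell Ranger 4.0.0, and the submitters' processing notes name mm10. Barcodes under about 500 UMIs had been left out before deposit. Columns of per-sample values with no sample numbered 0.

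Kept cells had 300 or more genes, 500 or more UMIs and no more than 10% of UMIs from mitochondrial genes, which removed 73 shallow and 483 mitochondrial barcodes at 4 weeks and 54 and 383 at 2 weeks. Doublets were taken as the cells scoring highest in Scrublet, 0.8% for every 1000 barcodes (562 at 4 weeks, 258 at 2 weeks, where Scrublet's own threshold called 261 and 73). Before filtering the libraries shared 8 barcodes. The 2000 most variable genes without the 28 members were clustered by Leiden at resolution 1 (30 principal components, 15 neighbours), both libraries together. Clusters were named from 22 marker lists, needing at least 3 markers and 50% of the list. Classes of 50 or more cells per library were compared between times, 8 in all, cluster 5 included.

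UMIs were summed per class and library. Intervals are exact Poisson for levels, exact conditional binomial for ratios and Clopper-Pearson for shares. A count of 0 was read as allowing 3 counts. There were no replicates and hence no tests. Cells under the thinning depth of 2700 UMIs (697 at 4 weeks, 540 at 2 weeks) were left out of the split by cycling. The members and lists were chosen with earlier results of these data known. Named members have at least 100 UMIs and a ratio of at least 1.5-fold, or are the 2 highest and 2 lowest, with Abca1 and Abcg1 always given and at most 4 genes of any other list. Clusters within classes, single cells and genes that lead clusters were chosen after their values were seen. On simulated data with 200 genes changed by 2-fold, 100% were called in fibroblast-like cells (11594 genes) and 97.5% in macrophage-like cells (8833 genes). Of the table's IDs, 27645 matched GENCODE M21, used for names and overlaps. Alternatives covered filters, doublets, clustering, scaling, minimum counts and fold.

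Tools were Python 3.11.15, numpy 2.4.6, scipy 1.17.1, pandas 2.3.3, scanpy 1.11.5, scikit-learn 1.9.0, leidenalg 0.10.2 and matplotlib 3.10.9.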

Additional observations from a re-analysis of the deposited data

Results flagged for a closer look

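Some members had ratios between the times, 4 weeks over 2 weeks, that pointed in opposite directions in different classes, each with a counting interval that excluded 0. With 1 library per time, none of these differences was tested. Abca1 was lower at 4 weeks in macrophage-like cells (log2 ratio -1.09) and higher in fibroblast-like cells (0.38), a difference of -1.47. Against thymocyte-like cells (0.52, from 60 UMIs at 4 weeks and 132 at 2 weeks) the difference for Abca1 was -1.61. Among the enzymes, Idi1 was higher at 4 weeks in dendritic cell-like cells (1.67) and lower in thymocyte-like cells (-0.45), a difference of 2.12. Cyp51 differed by 1.38 between the same classes (0.78 and -0.60) and Fdps by 1.20 (0.91 and -0.29). Fdps also differed by 1.19 between macrophage-like cells (0.90) and thymocyte-like cells (-0.29).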

How the results depend on the processing

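No paired analysis was possible because each time is 1 library and no result comes from a test. Of the summed levels and counts, 67 alternative values stayed near the reported ones and 17 moved. Of those for single genes, 1284 stayed near, 104 moved and 1 past the fold changed sign. Of all 1283 alternative ratios, 101 had another sign than the reported one, which was past the fold only for Insig1 in cluster 6. That ratio, 0.62 as reported, was -0.095 without the 5 top cells of each library. Abca1 in macrophage-like cells kept its side of the fold throughout. The enzyme sum of fibroblast-like cells (0.08) was 0.16 with the members kept in clustering, 0.17 at Leiden resolution 2 and -0.0725 as a mean of per-cell CPM. With each library clustered on its own, that of macrophage-like cells was 0.36 and that of smooth muscle cell-like cells -0.057. That of thymocyte-like cells was -0.23 with no doublet removal, -0.38 as a per-cell mean and -0.43 without the top 5 cells. That of cluster 6 (0.85) was 0.73 at resolution 2, 0.99 with a mitochondrial limit of 20% and 0.62 as a per-cell mean. It was 0.63 without the top cell and 0.29 without the top 5, when 3 members and not 10 were past the fold upwards. Dendritic cell-like cells had 8 members past the fold upwards with a minimum of 20 UMIs, 9 with no minimum and 1 at 2-fold, in place of 4. Leaving out the top 5 cells, and counting cluster 5 with fibroblast-like cells, were chosen after seeing the data. The dendritic cell-like class gave no value with no doublet removal or a limit of 20%. The cause of these moves was not tested. Scaling moved the median of all genes by at most 0.23 in size (NK cell-like cells). Depth limits members under 100 UMIs, 1 in fibroblast-like and thymocyte-like cells and 26 in NK cell-like cells.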

Other observations

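Neighbouring lipid genes outside the 28 members were also counted, and fibroblast-like cells are given first. Of a list of sterol uptake, storage and oxidation genes, 3 of the 10 with enough UMIs were past the fold upwards and 1 downwards there, where 3.0% of all genes tested were past it upwards and 7.84% downwards. Vldlr, a lipoprotein receptor, was at 155 CPM at 4 weeks and 97.2 CPM at 2 weeks (log2 ratio 0.67), Cyp27a1, a sterol hydroxylase, at 24.5 and 15.1 CPM (0.70), and Nceh1, a cholesteryl ester hydrolase, at 10.3 and 6.20 CPM (0.73). Cyp7b1, an oxysterol hydroxylase, was at 3.62 and 5.83 CPM (-0.69). Of the LXR and SREBP machinery list, Nr1h3, which encodes an LXR, was at 19.7 CPM at 4 weeks and 12.4 CPM at 2 weeks (0.66), and Arl4c, a small GTPase gene known as an LXR target, was at 12.2 and 33.4 CPM (-1.45). The list medians in this class were 0.11 and 0.01, beside 0.01 over all genes.

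The fatty acid synthesis list had 1 of 9 genes past the fold in fibroblast-like cells, Elovl6, an elongase (5.25 CPM at 4 weeks and 7.89 CPM at 2 weeks, -0.59, with 7.84% of all genes past it downwards). In macrophage-like cells 1 of 6 was, Fasn, the fatty acid synthase, at 11.8 and 4.70 CPM (1.33; 0.72 to 1.92), where 4.83% of all genes were past it upwards. Scd2, a desaturase, was past it downwards in cluster 5 (66.7 and 115 CPM, -0.78; 4.36% of all genes) and in NK cell-like cells (29.0 and 46.6 CPM, -0.68; 17.9%). Single genes past the fold elsewhere were Scarb1, a lipoprotein receptor, in thymocyte-like cells (11.996 and 19.6 CPM, -0.71; 2.39%), Stard3, a lysosomal sterol carrier, in dendritic cell-like cells (22.7 and 38.9 CPM, -0.78; 12.1%) and Lpcat3, a phospholipid-remodelling enzyme, in cluster 5 (21.7 and 34.5 CPM, -0.67); all 3 were past it downwards, and the shares are of all genes tested. In smooth muscle cell-like and T cell-like cells no gene of these 3 lists was past the fold.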
